A study of Drosophila melanogaster with 8 samples.

Results

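Triglyceride, the storage fat of the fly, is built on a glycerol backbone in successive steps, and the 7 genes described here encode enzymes, or predicted enzymes, of the first step and of the last 2 steps. They were chosen by gene number for their place in the pathway, with earlier results of these data known, as mino (CG5508) and Gpat4 (CG3209) for the first acylation, Lpin (CG8709) for the removal of phosphate, and mdy (CG31991), Dgat2 (CG1942), CG1941 and CG1946 for the final acylation. All 7 were present among the 12082 genes of the count table, and all 7 passed the filter on low counts that left 10525 genes to test. RNA came from whole adult female Drosophila melanogaster, 1 week old and raised on food with 8% yeast and 9% sugar, with 4 libraries per genotype. Each library pooled RNA of 2 collections of 12 females. The mutants carried btl>DHR78, a transgene that expresses DHR78 (now Hr78, a nuclear receptor gene) under the tracheal driver btl, together with the DHR78 alleles 1 and 3 over each other. The controls were matched females with btl>DHR78 alone, so the transgene was present in both genotypes. The labels call the mutants rescued, so they are mutants that carry a tracheal source of the receptor and not plain mutants.

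Triglyceride synthesis begins when a glycerol-3-phosphate acyltransferase attaches the first fatty acid to glycerol-3-phosphate. After another acylation, a lipin removes the phosphate to give diacylglycerol, which can go to phospholipids or receive its last fatty acid from a diacylglycerol acyltransferase. Diacylglycerol acyltransferases belong to a pair of unrelated families, named after mammalian DGAT1 and DGAT2, and in flies mdy is the member of the first family. In adult females the fat body, the midgut and the ovary all make neutral lipid, and the oocyte is loaded with lipid droplets.

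The mutants had lower transcript levels of Dgat2 and CG1946, which lie next to each other, while the third gene of that cluster, CG1941, and the enzyme genes of the first step did not pass the test. CG1946 had a mutant mean of 31.4% of the control mean, and Dgat2 one of 49.7%. Lpin was at 86.0% of its control mean, a small difference that passed the test in the main comparison and missed it in most of 15 alternatives (other scalings, filters and models, and each library left out in turn). In all, 3 of the 7 genes passed an adjusted p of 0.05 and all 3 were lower in the mutants, against 19.6% of all tested genes in either direction, 11.1% in the lower and 8.46% in the higher direction (edgeR quasi-likelihood test with Benjamini-Hochberg adjustment over 10525 genes). The median log2 fold change of the 7 genes was -0.07, against 0.01 over all tested genes.

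Total counts ranged from 22608378 to 33054191 in the mutant libraries and from 19544675 to 28106635 in the control libraries. Transcripts of Hr78 were at 69.3 to 73.4 CPM, counts scaled to a common library size, in the mutants and at 118 to 127 CPM in the controls, and transgene and chromosomal reads are not separated there. Mutant library 2 stood apart, with 253.5 CPM summed over 21 marker genes of the male reproductive tract, against 37.4 to 41.4 CPM in the other mutants and 35.8 to 39.5 CPM in the controls. Outside mutant library 2 nearly all of this sum came from Acp95EF. That gene was at 57.8 CPM in mutant library 2, 37.0 to 40.8 CPM in the other mutants and 35.5 to 38.35 CPM in the controls. Of the 21 markers, SP, ProtA, ProtB and sa had 0 counts in every control library. The 3 genes that passed the test are also given without that library. In whole animals, fewer cells of a type and less RNA per cell cannot be told apart.

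The first acylation of glycerol-3-phosphate can be made at the outer mitochondrial membrane or at the endoplasmic reticulum. The gene mino (minotaur) encodes the mitochondrial type of this acyltransferase and is also known for a role in piRNA biogenesis in the ovary. Its level was 223, 226, 224 and 228 CPM in mutant libraries 1 to 4, against 234, 223, 219 and 246 CPM in control libraries 1 to 4. The mutant values lay inside the control range, with a standard deviation of 2.40 CPM around 225 CPM in the mutants and of 12.3 CPM around 230 CPM in the controls (n = 4 each). The log2 fold change of mino was -0.03 (SE 0.04, 95% interval -0.13 to 0.07, adjusted p 0.662 by edgeR). In the Ensembl annotation the exons of mino share 1452 bases with an antisense RNA gene, asRNA:CR46452. They also share 118 bases with lncRNA:CR45566 and 96 with NSD, both on the opposite strand. The counts are not known to use strand.

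Gpat4 encodes an acyltransferase of the endoplasmic reticulum type for the same step. It was at 129, 118, 128 and 117 CPM in mutant libraries 1 to 4 and at 136, 117, 127 and 124 CPM in control libraries 1 to 4. Every mutant value of Gpat4 lay inside the control range. The log2 fold change was -0.03 (SE 0.06, 95% interval -0.15 to 0.09, adjusted p 0.738 by edgeR). Levels of both genes per kilobase of exon were close, since the ratio of mino to Gpat4 was 1.00 to 1.13 in the mutants and 0.999 to 1.15 in the controls.

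Lpin encodes the fly lipin, a phosphatidate phosphatase that supplies diacylglycerol and is also known to act in the nucleus. Mutant libraries 1 to 4 held 127, 139, 155 and 139 CPM of Lpin, and control libraries 1 to 4 held 178, 160, 155 and 160 CPM. The genotypes overlapped through a single library, as mutant library 3 (155.4 CPM) exceeded control library 3 (154.7 CPM). Lpin averaged 140.3 ± 11.5 CPM in the mutants and 163.1 ± 10.4 CPM in the controls (SD, n = 4 each).

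Lpin had a log2 fold change of -0.22 (SE 0.06, 95% interval -0.36 to -0.08, adjusted p 0.0373 by edgeR). The call was lost in 10 of 15 alternatives, in which every log2 fold change stayed negative, and 6 of the 10 left out a single library. The adjusted p by edgeR was 0.0866 without mutant library 1, 0.0698 without mutant library 2 and 0.0807 without mutant library 4. It was 0.0872 without control library 1, 0.0587 without control library 2 and 0.0649 without control library 4 (edgeR). Correcting a trend with transcript length gave the smallest difference (log2 fold change -0.11, adjusted p 0.259 by edgeR). Lpin has the largest exonic length of the 7 genes, 5511 bases over all its exons in the annotation. Of these, 600 are shared with the neighbouring gene kermit.

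The gene mdy (midway) encodes the DGAT1-type diacylglycerol acyltransferase of the fly, and its mutants are known for failing oogenesis and low neutral lipid in the germ line. It was at 37.1, 41.9, 43.4 and 39.9 CPM in mutant libraries 1 to 4, against 38.0, 35.3, 41.0 and 36.6 CPM in control libraries 1 to 4. The genotypes overlapped, and the log2 fold change of 0.10 (SE 0.06) missed the threshold (adjusted p 0.277 by edgeR). Its 95% interval, from -0.04 to 0.24, does not reach a difference as large as that of Dgat2 or CG1946. The 15 alternatives gave log2 fold changes of mdy between 0.07 and 0.15 and adjusted p-values between 0.116 and 0.530 (edgeR and DESeq2).

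**Figure D1:**
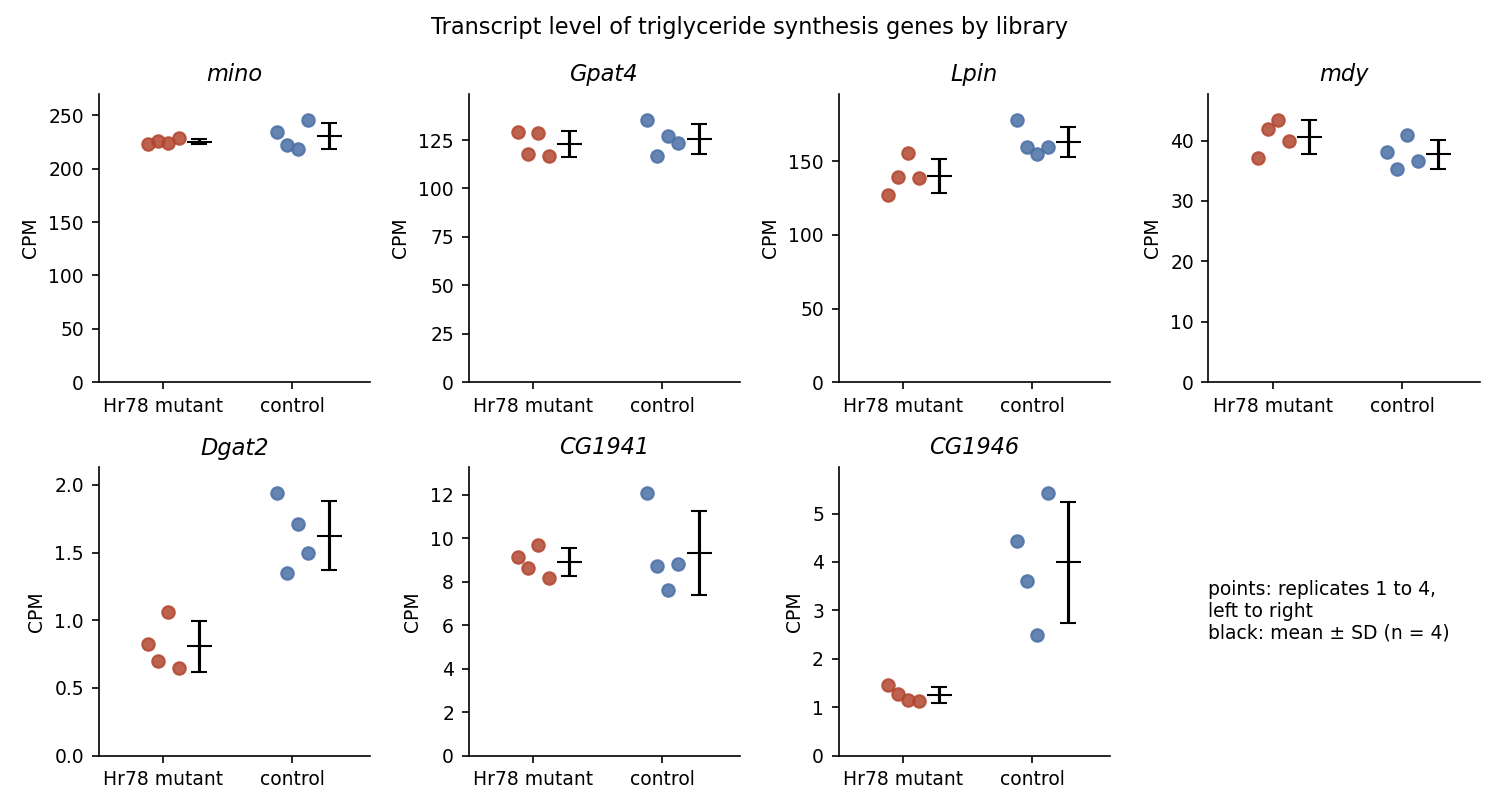
Transcript levels in CPM of the 7 triglyceride synthesis genes in the 4 Hr78 mutant and 4 control libraries, with each axis starting at 0, points for single libraries and the mean ± SD (n = 4) in black. Dgat2 and CG1946 are the panels in which every mutant library lies below every control library, and Lpin overlaps through mutant library 3 alone.

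Dgat2, CG1941 and CG1946 belong to the DGAT2 family, whose animal members add an acyl chain to diacylglycerol or related acceptors. They follow each other on chromosome arm 2R, in the order CG1941, Dgat2, CG1946 and all on the same strand, with no other protein-coding gene between them in the RefSeq order of Release 6. Their exons share no base with those of other genes in the Ensembl annotation. As paralogs they may still share short stretches, and how reads that match several genes were counted is not given in the sources used here.

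CG1946 was at 1.46, 1.28, 1.14 and 1.12 CPM in mutant libraries 1 to 4 and at 4.44, 3.61, 2.49 and 5.42 CPM in control libraries 1 to 4. These levels rest on 48, 35, 29 and 26 reads in the mutants and on 119, 80, 51 and 105 reads in the controls. Every mutant library lay below every control library, with a gap between the highest mutant and the lowest control. CG1946 averaged 1.25 ± 0.157 CPM in the mutants and 3.99 ± 1.24 CPM in the controls (SD, n = 4 each). The controls varied more, with a coefficient of variation of 31.1%, where counting error alone would give 10.6%, while the mutant value of 12.5% was within the 17.0% from counting error.

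CG1946 had a log2 fold change of -1.66 (SE 0.23, 95% interval -2.18 to -1.14, adjusted p 0.00110 by edgeR). Only 51 of the 10525 tested genes, CG1946 included, had a log2 fold change this low or lower, which is 0.485% of them. All 15 alternatives kept the call, with log2 fold changes between -1.83 and -1.48 and adjusted p-values between 1.08e-06 and 0.00505 (edgeR and DESeq2). Without mutant library 2 the log2 fold change was -1.66 and the adjusted p 0.00215 (edgeR).

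Dgat2, the gene that gave the cluster its name, was the least abundant of the 7 per kilobase of exon. It was at 0.824, 0.696, 1.07 and 0.648 CPM in mutant libraries 1 to 4, from 27, 19, 27 and 15 reads. Control libraries 1 to 4 held 1.94, 1.35, 1.71 and 1.497 CPM of Dgat2, from 52, 30, 35 and 29 reads. The genotypes did not overlap, and mutant library 3 came nearest to the controls. Among the 7, Dgat2 and CG1946 were separated in this way, both with all mutants lower, against 25.0% of all tested genes in either direction and 13.2% in the lower direction.

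Dgat2 averaged 0.808 ± 0.187 CPM in the mutants and 1.62 ± 0.256 CPM in the controls (SD, n = 4 each), a log2 fold change of -1.01 (SE 0.22, 95% interval -1.49 to -0.52, adjusted p 0.00999 by edgeR). The spread within each genotype was about that of counting error, with a coefficient of variation of 23.1% against 21.3% from counting in the mutants and of 15.7% against 16.5% in the controls. The call of Dgat2 was kept in all 15 alternatives, with log2 fold changes between -1.16 and -0.90 and adjusted p-values up to 0.0334 (edgeR and DESeq2). Without mutant library 2 the log2 fold change was -0.94 and the adjusted p 0.0195 (edgeR). A difference of at least 2-fold that passed the test in the lower direction was found for 1.13% of all tested genes, and CG1946 and Dgat2 were both among these. Dgat2 lay at the edge of this limit, and in some alternatives its difference was smaller than 2-fold.

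CG1941 was the most abundant of the 3 adjacent genes per kilobase of exon. It was at 9.15, 8.64, 9.71 and 8.17 CPM in mutant libraries 1 to 4, against 12.1, 8.75, 7.62 and 8.83 CPM in control libraries 1 to 4. The mutant values lay inside the control range, which control library 1 stretched upward. The log2 fold change was -0.07 (SE 0.13, 95% interval -0.36 to 0.23, adjusted p 0.758 by edgeR). Without control library 1 it was 0.09 (adjusted p 0.606 by edgeR), and none of the 15 alternatives called it.

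**Figure D2:**
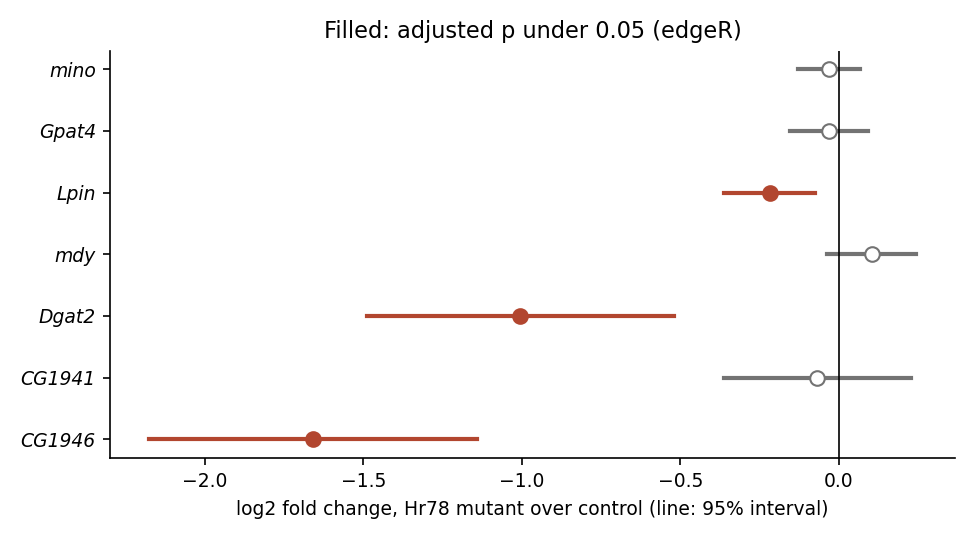
Log2 fold change of each gene, Hr78 mutant over control, with its 95% interval from the edgeR fit, filled where the adjusted p was under 0.05. CG1946 (-1.66) and Dgat2 (-1.01) lie far left of the other 5 genes, whose values run from -0.22 to 0.10.

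Ratios between genes of the cluster do not depend on how the libraries were scaled. For every read of CG1941 there were 0.118 to 0.160 reads of CG1946 in the mutants, against 0.327 to 0.614 in the controls. The ratio of Dgat2 to CG1941 was 0.0794 to 0.110 in the mutants and 0.155 to 0.224 in the controls. Neither ratio overlapped between the genotypes. CG1946 was also counted more often than Dgat2 in each of the 8 libraries, at 1.07 to 1.84 reads per read of Dgat2 in the mutants and 1.46 to 3.62 in the controls, ranges that overlapped. No test was run on these ratios.

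CG1941 accordingly held 80.0% to 82.2% of the reads of the 3 genes in the mutants and 56.1% to 65.5% in the controls. The share of CG1946 was 9.60% to 12.8% in the mutants, against 21.1% to 34.4% in the controls, and that of Dgat2 was 6.52% to 8.94% in the mutants and 9.51% to 14.5% in the controls. The summed level of the cluster was 11.0 ± 0.876 CPM in the mutants and 14.9 ± 2.84 CPM in the controls (SD, n = 4 each). These sums overlapped, with 9.94 to 11.9 CPM in the mutants and 11.8 to 18.5 CPM in the controls.

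**Figure D3:**
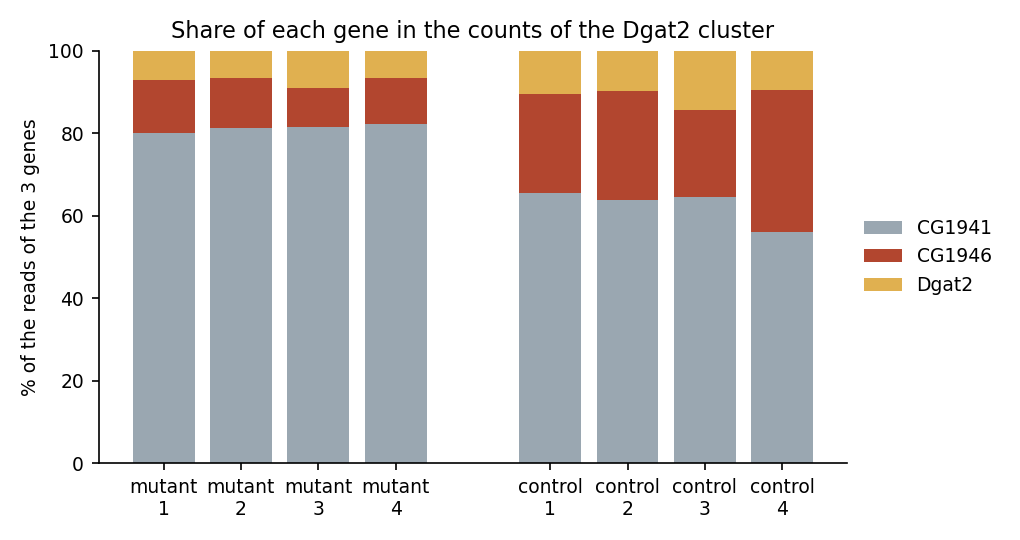
Share in percent of the reads of CG1941, CG1946 and Dgat2 in their sum, for mutant libraries 1 to 4 on the left and control libraries 1 to 4 on the right. CG1941 takes 80.0% to 82.2% of the bar in the mutants and 56.1% to 65.5% in the controls, and the share of CG1946 is smaller in each mutant than in each control.

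The genes on either side of the cluster were read for their position, outside the rule for named genes and with their values seen. The nearest protein-coding neighbours in the Release 6 order are tor, a receptor tyrosine kinase gene, before CG1941, and Gdap2 after CG1946. The level of tor was 118 ± 9.24 CPM in the mutants and 112 ± 9.26 CPM in the controls, which did not pass the test (log2 fold change 0.08, adjusted p 0.483 by edgeR). Gdap2 was at 232 ± 8.51 CPM in the mutants and 228 ± 8.70 CPM in the controls, and did not pass either (log2 fold change 0.03, adjusted p 0.674 by edgeR). Farther out, CG34216 had a log2 fold change of -0.10, CG30496 one of 0.08 and cn, an enzyme gene of eye pigment synthesis, one of -0.27, and none of these 3 passed the test (edgeR, adjusted p 0.413 to 0.595). The gene cn rested on 11 to 29 reads per library, and its 95% interval ran from -0.88 to 0.34 (edgeR). Of the 8 genes in this stretch that could be tested, Dgat2 and CG1946 were those that passed, against 19.6% called over all tested genes. Both were among the genes chosen with earlier results of these data known, and no test was run on the stretch as a whole.

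**Figure D4:**
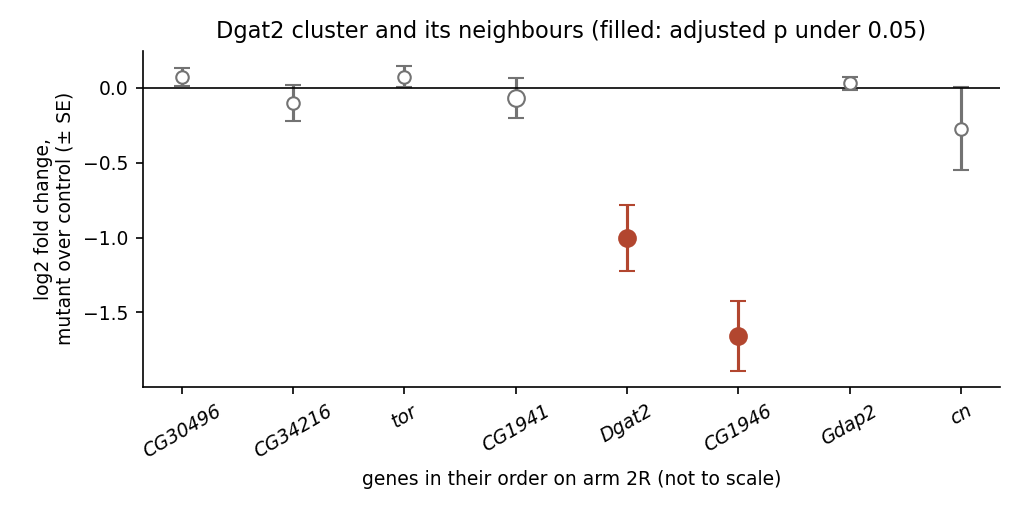
Log2 fold change ± SE (edgeR), Hr78 mutant over control, for the Dgat2 cluster and 5 neighbouring protein-coding genes in their order on arm 2R, filled where the adjusted p was under 0.05. Dgat2 (-1.01) and CG1946 (-1.66) are the filled points, and the other 6 genes lie between -0.27 and 0.08. CG46385, between Gdap2 and cn, was not in the count table and is not shown.

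Levels of different genes were compared per kilobase of exon. In that unit the order was the same in both genotypes, with mino highest, then Gpat4, Lpin, mdy, CG1941, CG1946 and Dgat2. In the mutants the means were 57.4 CPM per kilobase for mino, 54.0 for Gpat4, 25.5 for Lpin, 15.1 for mdy, 5.30 for CG1941, 1.05 for CG1946 and 0.619 for Dgat2. In the controls the means were 58.7 CPM per kilobase for mino, 55.2 for Gpat4, 29.6 for Lpin, 14.0 for mdy, 5.54 for CG1941, 3.36 for CG1946 and 1.25 for Dgat2.

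Neighbours in this order did not all stand apart. In the mutants, mino (56.8 to 58.2 CPM per kilobase) lay just above Gpat4 (51.3 to 56.7), and CG1941 (4.86 to 5.77), CG1946 (0.945 to 1.23) and Dgat2 (0.497 to 0.816) were separate. In the controls, mino (55.7 to 62.6 CPM per kilobase) and Gpat4 (51.2 to 59.5) overlapped, and CG1941 (4.53 to 7.18) just overlapped CG1946 (2.10 to 4.56). Among the genes of the last acylation, mdy held 65.4% to 70.2% of the level per kilobase summed over mdy and the 3 cluster genes in the mutants, and 53.3% to 65.8% in the controls. That sum was 22.1 ± 1.23 CPM per kilobase in the mutants and 24.2 ± 1.82 in the controls (SD, n = 4 each), and its range of 21.1 to 23.7 in the mutants overlapped that of 22.4 to 26.6 in the controls. Averaged over the 8 libraries, 11.0% of tested genes lay below Dgat2 per kilobase, 18.5% below CG1946, 27.4% below CG1941 and 45.2% below mdy.

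The other genes of glycerolipid metabolism were read from 4 lists, which were drawn up with earlier results of these data known. Of 43 genes tested, 2 were higher, 2 were lower and 39 did not pass the test, which is 9.30% called against 19.6% of all tested genes. The count was 1 without mutant library 4 and 2 without mutant library 2, mutant library 3 or control library 4, and it was 8 with the replicate number as a block. The largest of the 4 differences was 0.22 on the log2 scale, and the median of the 43 log2 fold changes was -0.01.

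The first list holds other glycerolipid steps, and 1 of its 9 tested genes was lower and none higher (median log2 fold change 0.04). Gk2, a glycerol kinase gene, was at 80.3, 76.9, 81.8 and 79.5 CPM in mutant libraries 1 to 4 and at 94.9, 84.8, 87.4 and 89.9 CPM in control libraries 1 to 4. The genotypes did not overlap, and the log2 fold change was -0.16 (SE 0.05, adjusted p 0.0279 by edgeR). The call was lost without mutant library 2 (adjusted p 0.0738), mutant library 4 (0.0593), control library 1 (0.0616) and control library 4 (0.0628, all edgeR), and with upper quartile scaling (0.0744). The 4 Agpat genes, whose enzymes add the second acyl chain between the steps of mino and Lpin, were singled out for this place in the pathway after their values were seen. They had log2 fold changes between -0.11 and 0.17 and adjusted p-values between 0.0938 and 0.671 (edgeR).

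Of 14 genes of fatty acid supply and its regulation, 1 was higher and none lower (median log2 fold change -0.09). FASN3, a fatty acid synthase gene of oenocytes, was at 353, 372, 416 and 394 CPM in mutant libraries 1 to 4, against 341, 325, 353 and 296 CPM in control libraries 1 to 4. The genotypes met at mutant library 1 and control library 3, and the log2 fold change was 0.22 (SE 0.07, adjusted p 0.0361 by edgeR). The call was lost without mutant library 3 (adjusted p 0.104), mutant library 4 (0.0845), control library 2 (0.0709) and control library 4 (0.0912, all edgeR), and without the filter on low counts (0.0539). FASN1, the main fatty acid synthase gene of the fat body, was singled out after its values were seen. It was at 1058 ± 142 CPM in the mutants and 1385 ± 225 CPM in the controls, a log2 fold change of -0.39 that did not pass the test (adjusted p 0.0679, edgeR).

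Diacylglycerol and its precursor phosphatidate also feed phospholipid synthesis, and of 11 genes of that branch 1 was higher and none lower (median log2 fold change 0.02). Cds, which encodes the enzyme that turns phosphatidate into CDP-diacylglycerol, was at 110, 107, 106 and 106 CPM in mutant libraries 1 to 4 and at 101, 94.7, 102 and 94.97 CPM in control libraries 1 to 4. The genotypes did not overlap, and the log2 fold change was 0.13 (SE 0.04, adjusted p 0.0435 by edgeR). The call was lost in 8 of 15 alternatives, namely without any 1 of mutant libraries 1 to 4 (adjusted p 0.0720 to 0.0915), without control library 2 (0.105), 3 (0.0504) or 4 (0.108), and with the length correction (0.0551, all edgeR).

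Of 9 genes of lipid droplets, lipolysis and adipokinetic hormone, 1 was lower and none higher (median log2 fold change -0.02). Lsd-2, a perilipin gene whose protein coats lipid droplets, was at 719, 701, 697 and 699 CPM in mutant libraries 1 to 4 and at 820, 792, 796 and 843 CPM in control libraries 1 to 4. The genotypes did not overlap, and the log2 fold change was -0.21 (SE 0.04, adjusted p 0.00600 by edgeR). The call was lost with the correction for transcript length alone (adjusted p 0.0684, edgeR). The gene of the brummer lipase, bmm, which breaks stored triglyceride down, was singled out for its role after its values were seen. It had a log2 fold change of -0.02 (adjusted p 0.841 by edgeR). Akh, the adipokinetic hormone gene, was also named after its values were seen. Its log2 fold change of -0.46 was the largest difference of this list, with every mutant below every control. It did not pass the test (adjusted p 0.0897, edgeR). Of the 9 genes, 2 had positive log2 fold changes.

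**Figure D5:**
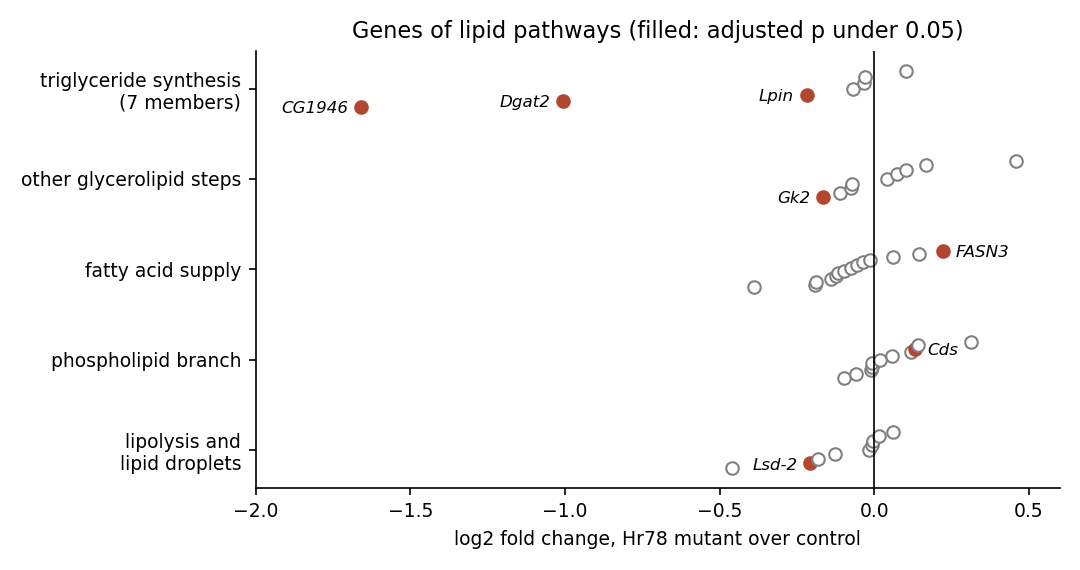
Log2 fold change, Hr78 mutant over control, of the 7 triglyceride synthesis genes and of the tested genes of 4 related lists, filled and named where the adjusted p was under 0.05 (edgeR). CG1946 and Dgat2 lie at -1.66 and -1.01, and the 4 filled genes of the other lists lie between -0.21 and 0.22.

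Some markers of tissues that handle lipid also differed between the genotypes, and the counts below stand against 19.6% called over all tested genes. Of 7 midgut markers, all digestive enzyme genes, 4 were lower, none was higher and 3 did not pass the test. The 4 were Jon25Bi (log2 fold change -1.94), Jon65Aiii (-1.18), alphaTry (-1.13) and Jon99Ci (-0.81), while betaTry (0.40), Mal-A1 (0.66) and Amy-p (0.03) had positive values, Mal-A1 with every mutant above every control. The summed midgut level was 1968 to 2767 CPM in the mutants and 3451 to 5992 CPM in the controls. Most of it came from Jon65Aiii, at 944 ± 203 CPM in the mutants and 2145 ± 602 CPM in the controls, and alphaTry, at 708 ± 117 CPM in the mutants and 1550 ± 414 CPM in the controls (SD, n = 4 each).

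Of 6 tested fat body markers 1 was higher, 1 was lower and 4 did not pass the test, but 5 of the 6 had negative log2 fold changes, with a median of -0.25. The lower one was apolpp, the lipophorin precursor gene (log2 fold change -0.32, adjusted p 0.00201 by edgeR), and the higher one was Mtp (0.18, adjusted p 0.0334 by edgeR). Apoltp, at -0.26, did not pass (adjusted p 0.0905, edgeR), although every mutant lay below every control. The summed fat body level, mostly from the yolk protein genes Yp1 to Yp3, overlapped between the genotypes, with 24450 to 30110 CPM in the mutants and 24290 to 36780 CPM in the controls.

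Of 6 oenocyte markers 5 were higher, FASN3 among them, and 1 did not pass the test. Their sums of 8716 to 10070 CPM in the mutants just overlapped those of 7120 to 8764 CPM in the controls. Most of each sum came from Cyp4g1, at 7413 ± 555 CPM in the mutants and 5971 ± 671 CPM in the controls (SD, n = 4 each). Of 13 ovary markers none passed the test, and 0 had an unadjusted p under 0.05 (edgeR). Their sums overlapped, with 9341 to 14500 CPM in the mutants and 8828 to 15490 CPM in the controls. What part these tissues had in the levels of Dgat2 and CG1946 was not tested. The markers were named after their values were seen.

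The genes whose levels followed each member most closely over the 8 libraries were found by Pearson correlation of log2 CPM among 9401 genes with a mean of at least 2 CPM. These correlations are descriptions, since all genes share the libraries and, for genes that differ between the genotypes, the 2 levels of the comparison. Closest to CG1946 were pes, a scavenger receptor gene of the CD36 family (r = 0.986), and CG8312 (r = 0.984). The levels of pes were 159 ± 4.66 CPM in the mutants and 188 ± 9.09 CPM in the controls. Closest to Dgat2 were CG9555 (r = 0.993) and CG3036 (r = 0.983). CG9555 was at 7.54 ± 1.35 CPM in the mutants and 12.9 ± 1.92 CPM in the controls (SD, n = 4 each). Both were picked as the highest of the 9401 genes. Dgat2 had 15 to 52 reads per library, with a spread within each genotype about that of counting error.

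At least 0.9 was reached by 245 genes for CG1946 and by 252 for Dgat2, against 10 for CG1941, 11 for mdy, 52 for Lpin, 32 for Gpat4 and 5 for mino. Closest to CG1941 were Nfs1 (r = 0.939), a gene of iron-sulfur cluster assembly, and INPP5E (r = 0.919). The single closest genes were CG32700 for mdy (r = 0.959), CG6424 for Lpin (r = 0.960), CG12963 for Gpat4 (r = 0.978) and CG6428 for mino (r = 0.914). CG1946 and Dgat2 had r = 0.836 with each other over the 8 libraries and r = -0.06 once the mean of each genotype was removed.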

How the data were processed

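Polyadenylated RNA of whole females was sequenced, with 4 mutant and 4 control libraries grouped and numbered by their titles. The deposited table holds whole-number read counts for each gene, not normalized. The submitters' processing notes name the build dm3 and the tool DESeq, with no role. No aligner, annotation or strand setting is named in the sources used here. That the libraries are biological replicates rests on the labels. The row that names no gene (0.0154% to 0.0176% of the counts) was left out.

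Counts were filtered with filterByExpr (minimum count 10), scaled with TMM and tested with the robust quasi-likelihood test of edgeR 4.0.16 in R 4.3.3, without covariates, two-sided, with Benjamini-Hochberg adjustment at 0.05. DESeq2 1.42.0 was an alternative. The script was tested on simulated data. CPM are counts scaled to the TMM-adjusted library total. Standard errors (SE) were derived from each log2 fold change and its F statistic, and 95% intervals use the fit's degrees of freedom. Counting error is that of a Poisson count with the group's mean. Symbols and gene order came from the RefSeq table of Release 6 and exonic lengths, as the union of all exons, from Ensembl release 115. Both differ in build from dm3, so no coordinates are given, and lengths may differ from those the authors used. Of the 49 names on the 4 pathway lists 45 matched a row, with Gpdh3, Fatp2 and Ept unmatched and Gyk a repeat of Gk1. Of the 45, Gpdh2 and Gpo3 did not pass the filter. The 7 genes and the lists were chosen with earlier results of these data known. Named genes are the 7, Hr78 and btl, up to 4 called genes per list, and the genes most like each member. The cluster's neighbours, FASN1, bmm, Akh, the Agpat genes and the tissue markers were named outside this rule, with their values seen. The markers include SP, ProtA, ProtB, sa and Acp95EF. The gene btl had a log2 fold change of -0.05 (adjusted p 0.790, edgeR). No sequences were used here.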

Additional observations from a re-analysis of the deposited data

Results flagged for a closer look

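Among 46 groups of 4 libraries, 2 held a library whose gap to the others exceeded the 95% limit of Dixon's test, where chance alone flags about 1 group in 20. Cds was at 110.3 CPM in mutant library 1, while the other mutants lay between 106.1 and 106.7 CPM. The level of pes was 151.7 CPM in mutant library 4, while the other mutants lay between 160.2 and 161.3 CPM. None of the 7 triglyceride synthesis genes had such a library in either genotype.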

How the results depend on the processing

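The 7 genes, the called genes of the pathway lists and the numbers of genes called were recomputed under 15 alternatives. Other named genes, the tissue markers, levels per kilobase, cluster ratios and correlations were not recomputed. Of the 7 genes, between 2 and 3 passed in every alternative, always Dgat2 and CG1946, and the change in number was that of Lpin. Lpin missed the threshold with upper quartile scaling (log2 fold change -0.17, adjusted p 0.0734), without the filter on low counts (0.0551), with the replicate block (0.0923) and with the length offset (0.259, all edgeR). The sign changed in 1 alternative for CG1941, 2 for Gpat4 and 3 for mino, none of them called. Over all genes, upper quartile scaling called 1499 higher and 872 lower (63.2% higher, against 43.1% with TMM), and the length offset called 809 higher and 764 lower (51.4% higher). Leaving out 1 library called 1457 to 1702 genes, with 606 to 760 higher and 851 to 986 lower, and 1 to 4 genes of the pathway lists. With the replicate block 8 genes of those lists were called against 4 without it. The correlation of same-numbered deviations from the genotype means was 0.207, -0.0522, -0.097 and 0.043, against -0.197 to 0.234 between different numbers. Deviations taken from means of 4 libraries cannot decide whether the replicate numbers pair the libraries. With the block 2405 genes were called against 2063. The cause of these differences was not tested. Dgat2 rests on 15 to 52 reads per library, which limits the precision of its values.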
